A study of Mus musculus with 6 samples.

Results

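Immediate early genes are switched on within minutes of a growth factor signal or a stress, without new protein synthesis. Their transcription factors (the Fos and Jun proteins of AP-1, Atf3, the zinc finger proteins Egr1 and Egr2 and the orphan nuclear receptor Nr4a1) then act on later genes, while Dusp1 removes phosphate from MAP kinases and so damps the signal. In the embryonic lung the same kinases carry FGF signals from the mesenchyme to the branching epithelium, and the genes are also known to respond when tissue is dissected or dissociated. The 10 genes described here, Fos, Fosb, Jun, Junb, Atf3, Egr1, Egr2, Ier2, Dusp1 and Nr4a1, were listed by name, and each was read from the probe set whose platform annotation carries that symbol alone. All 10 were measured, each by 1 probe set, among 22180 genes.

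The 6 arrays were of whole lung buds dissected from E12.5 mouse embryos, with 100 ng of total RNA each. The 3 control arrays were of genotype Shh cre/+, and the 3 mutant arrays were of genotype Fzd2Flox/Flox; Shh cre/+, so both groups carried the Cre allele at Shh and only the mutants carried floxed Fzd2, which encodes a Wnt receptor. Shh is expressed in lung epithelium, no array measured the epithelium alone, and the sources used here do not say how many embryos went into an array. The comparison asks which genes Fzd2 signalling controls in that epithelium. Values are log2 expression after RMA, with array medians between 7.29 and 7.32, and each value is relative to the other genes on the array. A difference is mutant minus control on this scale, tested by limma with p adjusted over all 22180 genes.

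Fzd2 itself stood at 9.57, 9.82 and 9.75 in control replicates 1 to 3 and at 9.67, 9.07 and 9.54 in mutant replicates 1 to 3, so mutant replicate 1 lay within the control range (difference -0.29, SE 0.15, limma adjusted p = 0.475). Epithelial markers (Cdh1, Epcam, Nkx2-1, Sox9, Krt8 and Krt18) were present on every array, and their mean was 10.27 to 10.40 in controls and at most 10.12 in mutants. In a whole-bud sample fewer cells of a type and less RNA per cell cannot be told apart. On 3 arrays, markers of another tissue stood apart: 5 intestinal markers such as Fabp2 averaged 9.89 in control replicate 1 and at most 6.46 elsewhere, 4 adipose markers such as Adipoq averaged 10.61 in mutant replicate 2 and at most 7.52 elsewhere, and 4 heart markers such as Myl7 averaged 9.68 in mutant replicate 1 and at most 8.19 elsewhere. Of the heart markers, Nppa hardly stood apart, at 7.69 in mutant replicate 1 and 7.38 to 7.65 on the other arrays. Differences of Jun and Egr1, and the counts over the list, are given below with and without these 3 arrays. Erythroid markers (2 of 4 measured, Hbb-bh1 and Hba-x) divided the arrays in another way, with 8.24 to 8.41 in control replicates 1 and 2 and mutant replicate 2 and 7.50 to 7.69 on the other arrays.

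The promoters of these genes are known for short elements through which kinases reach them: the CArG box bound by SRF, the cyclic AMP response element (CRE) bound by CREB and ATF factors, and sites for ETS, AP-1 and Egr proteins. RefSeq promoters (GRCm38.p6) were searched for 8 of the 10 genes, with 5 listed starts for Egr2. No promoter of Egr1 or Ier2 was searched, so the matches given below say nothing about these genes. For the members, promoters on a single chromosome were passed over, while the shares over all genes kept that chromosome. The 250 bases before each start were searched on both strands. Fos, Egr2, Dusp1 and Nr4a1 are shown because they hold the elements of this family in different combinations, and Jun because it had the lowest difference between groups. Matches are in capitals, each line runs 5′ to 3′ toward the start, and the last base is position -1.
Fos, chr12:85473640-85473889, plus strand: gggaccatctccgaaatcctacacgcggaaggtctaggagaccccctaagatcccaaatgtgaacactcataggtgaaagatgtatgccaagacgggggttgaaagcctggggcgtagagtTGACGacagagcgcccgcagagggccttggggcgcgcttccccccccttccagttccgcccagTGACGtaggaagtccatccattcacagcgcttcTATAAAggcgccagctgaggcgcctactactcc
Egr2, the third listed start, chr10:67537619-67537868, plus strand: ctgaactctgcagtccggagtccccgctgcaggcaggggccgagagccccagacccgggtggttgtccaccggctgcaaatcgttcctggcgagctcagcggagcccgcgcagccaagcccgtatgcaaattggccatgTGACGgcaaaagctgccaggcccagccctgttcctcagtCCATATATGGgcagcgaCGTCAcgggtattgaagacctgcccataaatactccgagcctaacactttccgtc
Dusp1, chr17:26508473-26508722, minus strand: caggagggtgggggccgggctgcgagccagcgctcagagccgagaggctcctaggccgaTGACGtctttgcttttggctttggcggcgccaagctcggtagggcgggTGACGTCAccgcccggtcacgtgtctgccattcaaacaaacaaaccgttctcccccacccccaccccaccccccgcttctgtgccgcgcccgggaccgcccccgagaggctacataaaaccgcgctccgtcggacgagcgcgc
Nr4a1, chr15:101266596-101266845, plus strand: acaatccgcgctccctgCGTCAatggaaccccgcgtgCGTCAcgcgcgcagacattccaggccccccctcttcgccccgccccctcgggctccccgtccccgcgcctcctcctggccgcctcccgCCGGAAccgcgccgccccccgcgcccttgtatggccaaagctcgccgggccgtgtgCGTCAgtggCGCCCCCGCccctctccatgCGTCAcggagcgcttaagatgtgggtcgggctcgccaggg
Jun, chr4:95052223-95052472, minus strand: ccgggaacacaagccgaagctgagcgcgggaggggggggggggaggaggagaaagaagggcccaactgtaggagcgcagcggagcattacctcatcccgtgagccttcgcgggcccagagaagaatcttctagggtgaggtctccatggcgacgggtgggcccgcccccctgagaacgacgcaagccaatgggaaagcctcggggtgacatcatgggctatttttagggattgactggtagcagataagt

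The CRE core TGACG, which is also part of the full CRE, was found in 7 of the 8 genes (Fos, Fosb, Junb, Atf3, Egr2, Dusp1 and Nr4a1), counting a gene when any of its listed starts held a match. Counted in the same way, 19.8% of the 27025 genes in the promoter table held it. By single promoter it was in 9 of the 12 listed for the members and in 17.8% of all 32851. The Egr2 promoters among the 9 overlap and hold the same matches, so they are not separate. In Fos it began at positions -129 and -66, upstream of a TATAAA match at -33. Nr4a1 held 4 copies, all on the opposite strand. The full element TGACGTCA was found in Dusp1, at -143 (1.77% of all genes, at any start). Among the 8 genes a CArG box was found in Egr2 alone, at -72 from the start shown (1.62% of all genes). Bases further upstream than 250 were not searched, so an element there would be missed in any gene. The Egr site GCGNGGGCG was found in Fosb and Nr4a1 (5.33% of all genes), the ETS core CCGGAA in Egr2 at another start and in Nr4a1 (13.6% of all genes), and TATAAA in Fos (14.3% of all genes). The AP-1 site TGANTCA was found in none of the 8 (7.82% of all genes). Jun held no exact match to any of the 7 patterns in this window. Its sequence does hold tgacatca, which differs from TGACGTCA by a single base, and such variants were not searched. A match is a description of letters and not a measured binding site.

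No immediate early gene passed limma's threshold between the groups. At an adjusted p under 0.05 the count was 0 of 10, where 0.0631% of all genes were called, and at an unadjusted p under 0.05 it was 2 of 10. These were Egr1 with a higher mean in mutants, where 7.34% of all genes were at that p and higher, and Jun with a lower mean, where 5.15% were. The same pair were the members whose groups did not overlap, which was so for 19.4% of all genes (10.6% with mutants higher and 8.83% with mutants lower). An exact permutation test of 3 arrays against 3 cannot give a p under 0.1. The plot of values by array shows each gene on its own axis of equal height.

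**Figure D1:**
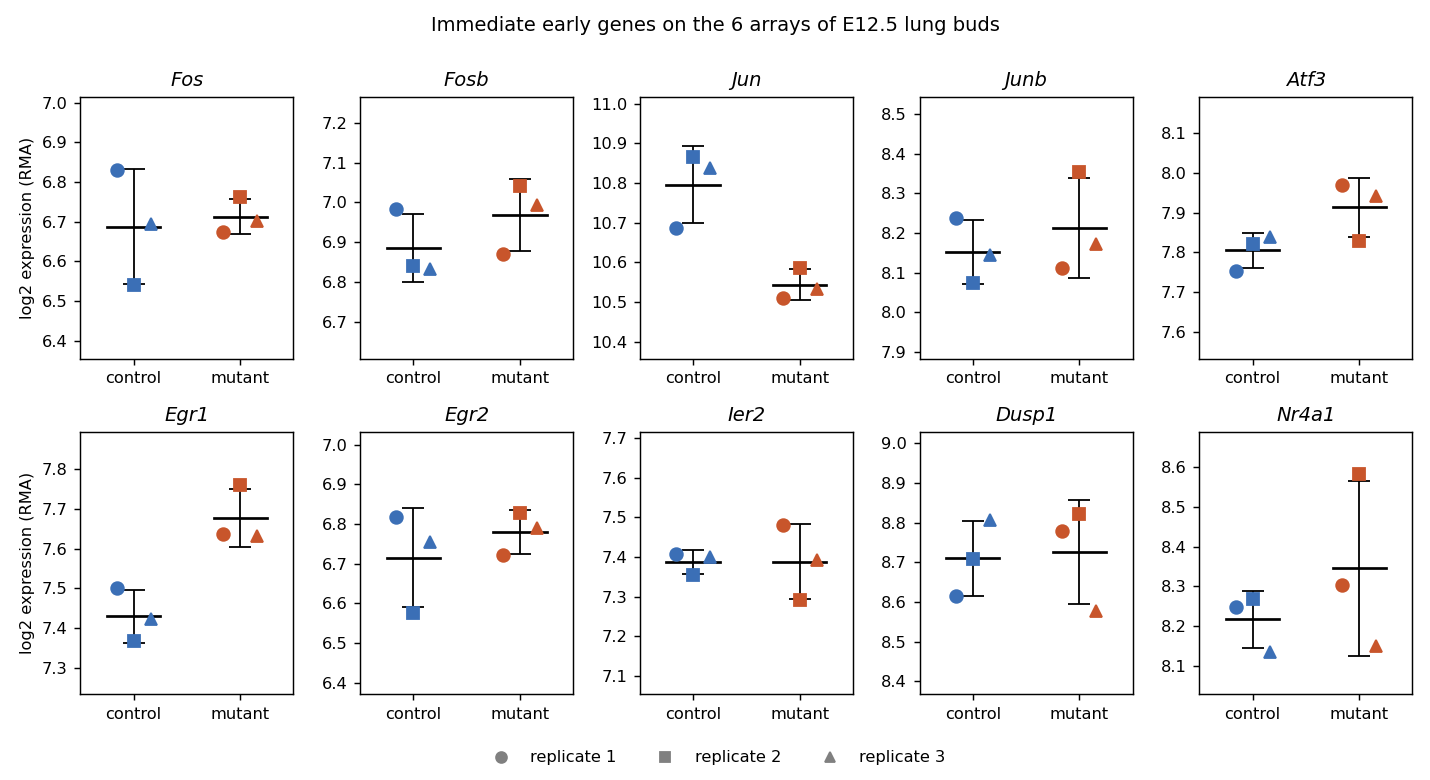
Log2 expression (RMA) of the 10 immediate early genes on each array, with controls in blue, mutants in orange, symbols for the replicates, and the mean and SD of each group (n = 3 and 3). Jun in mutants lies below, and Egr1 in mutants above, every control array, while the other genes overlap.

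Jun, the AP-1 subunit that pairs with Fos or with itself, stood at 10.69, 10.86 and 10.84 in control replicates 1 to 3 and at 10.51, 10.59 and 10.53 in mutant replicates 1 to 3. All 3 mutant arrays were lower than the lowest control, which was control replicate 1, and the mutants lay closer together (SD 0.04) than the controls (SD 0.10). The difference was -0.25 (SE 0.06, 95% interval -0.40 to -0.11), 83.9% of the control level, with limma's unadjusted p = 0.00366 and adjusted p = 0.215 (two-sided exact permutation p = 0.1). With control replicate 1 and mutant replicate 2 both left out it was -0.33 (limma adjusted p = 0.225), and -0.24 without mutant replicate 1 (limma adjusted p = 0.327). The epithelial markers were lower in the same arrays (6 of 6 with a lower mean). So were smooth muscle markers (Acta2, Tagln, Cnn1 and Myh11), which averaged 10.46 to 10.52 in controls and 10.20 to 10.40 in mutants, with 4 of 4 lower in mean and 2 at an unadjusted p under 0.05. The part of either marker list in the Jun value was not tested.

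Junb, a Jun relative that is a weaker activator in many settings, stood at 8.24, 8.07 and 8.15 in controls and at 8.11, 8.35 and 8.17 in mutants. Mutant replicate 2 alone was above the controls, and the groups overlapped. The difference was 0.06 (SE 0.08, limma adjusted p = 0.760), and it was -0.0097 without mutant replicate 2.

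Fos, which binds DNA as a dimer with Jun proteins, stood at 6.83, 6.54 and 6.69 in controls and at 6.67, 6.76 and 6.70 in mutants. The 3 mutant arrays lay inside the control range, whose ends were control replicates 1 and 2. The difference was 0.03 (SE 0.08, limma adjusted p = 0.914), with a 95% interval from 0.90- to 1.15-fold. Its paralog Fosb stood at 6.98, 6.84 and 6.83 in controls and at 6.87, 7.04 and 6.99 in mutants, with overlap through control replicate 1 and mutant replicate 1 (difference 0.08, SE 0.07, limma adjusted p = 0.629). Both probe sets were dim. As a rough guide to that end of the scale, 1088 olfactory receptor genes, known from nasal neurons, had a median of 4.87 and a 95th percentile of 6.98. Fos (mean over all arrays 6.70), Fosb (6.93) and Egr2 (6.75) lay under that percentile and the other 7 genes above it, although probe sets differ in how they respond and no detection calls were used here.

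Atf3, a stress-induced factor of the ATF family that can repress its own and other promoters, stood at 7.75, 7.82 and 7.84 in controls and at 7.97, 7.83 and 7.94 in mutants. Mutant replicates 1 and 3 were above every control and mutant replicate 2 was inside the control range. The difference was 0.11 (SE 0.06, limma adjusted p = 0.466), and 0.15 without mutant replicate 2 (limma's unadjusted p = 0.0299; adjusted p between 0.443 and 0.686 over the fits that left out 1 array each).

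Egr1, the zinc finger factor that follows ERK signalling, stood at 7.50, 7.37 and 7.42 in controls and at 7.64, 7.76 and 7.63 in mutants. Every mutant array was above every control. The highest was mutant replicate 2, and mutant replicates 1 and 3 differed by less than the spread of the controls (SD 0.07). The difference was 0.25 (SE 0.06, 95% interval 0.11 to 0.39), 1.19-fold, with limma's unadjusted p = 0.00367 and adjusted p = 0.215 (two-sided exact permutation p = 0.1). With control replicate 1 and mutant replicate 2 both left out it was 0.24 (limma adjusted p = 0.286), and 0.27 without mutant replicate 1 (limma adjusted p = 0.309). Mean leukocyte markers (Ptprc, Tyrobp, Cx3cr1, Csf1r and Cd68) were 8.21 to 8.29 in controls and 8.35 to 8.47 in mutants, with 3 of 5 higher in mean (Tyrobp, Cx3cr1 and Csf1r) and Ptprc and Cd68 lower (-0.03 and -0.02). Mesothelial markers averaged 8.30 to 8.40 and 8.42 to 8.62 (4 of 4 higher), and neural markers (3 of 4 measured) 6.92 to 7.03 and 7.05 to 7.26 (3 of 3 higher). Mesenchymal markers overlapped between groups (10.96 to 11.08 and 11.07 to 11.14), with 3 of 5 higher and 2 lower in mean. Endothelial markers overlapped too (10.46 to 10.55 and 10.46 to 10.57), with 2 higher and 2 lower. The part of these marker lists in the Egr1 value was not tested.

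Egr2, which shares the Egr zinc fingers and is known from neural crest and hindbrain, stood at 6.82, 6.57 and 6.75 in controls and at 6.72, 6.83 and 6.79 in mutants. The groups overlapped (difference 0.06, SE 0.07, limma adjusted p = 0.729). Control replicate 2 was the lowest array for Egr1, Egr2, Fos and Junb alike.

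Ier2, a small nuclear protein, stood at 7.41, 7.35 and 7.40 in controls and at 7.48, 7.29 and 7.39 in mutants. The difference was 0.0003 (SE 0.06, limma adjusted p = 0.999), and its interval ran from 0.91- to 1.10-fold. Ier2 had the narrowest range over the 6 arrays of the 10 genes, 0.19. Dusp1, the MAP kinase phosphatase, stood at 8.62, 8.71 and 8.81 in controls and at 8.78, 8.82 and 8.58 in mutants, so that the highest and the lowest of the 6 arrays were both mutants. Its difference was 0.02 (SE 0.08, limma adjusted p = 0.954), with an interval from 0.89- to 1.15-fold.

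Nr4a1, the orphan nuclear receptor also called Nur77, had the widest range, 0.45, and stood at 8.25, 8.27 and 8.13 in controls and at 8.30, 8.58 and 8.15 in mutants. The high value was that of mutant replicate 2. The difference was 0.13 (SE 0.11, limma adjusted p = 0.637). It was 0.0094 without mutant replicate 2 and 0.23 without mutant replicate 3 (limma adjusted p = 0.502). The 5 annotated genes closest to it in pattern, by the root mean square difference of centred log2 values over 6 arrays, were Aff1 (0.02), Derl1 (0.02), the fibronectin gene Fn1 (0.03), Mir1251 (0.03) and Adh7 (0.03). They were chosen for this likeness, so their highest value in mutant replicate 2 follows from the choice. Fn1, for example, stood at 12.32 there against at most 12.04 elsewhere.

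**Figure D2:**
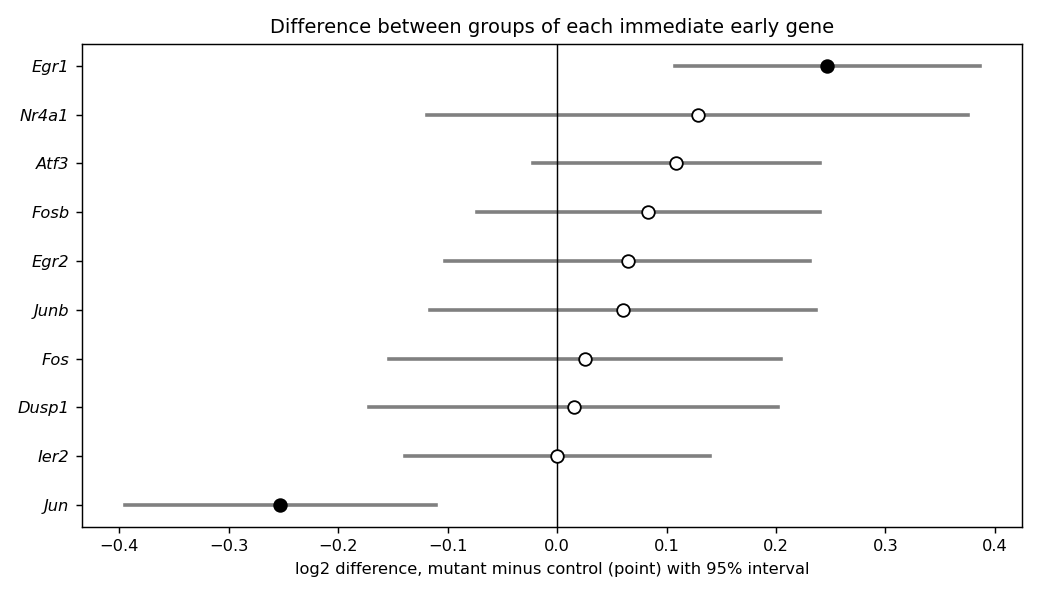
Difference of each immediate early gene between groups on the log2 scale (point) with limma's 95% interval (bar, n = 3 and 3), in order of size; filled points mark genes whose groups do not overlap. The intervals of Jun (-0.40 to -0.11) and Egr1 (0.11 to 0.39) leave out 0, and those of the other genes cross it.

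As a list, the 10 genes had a median difference of 0.06, beside 0.01 over all genes, and 9 had a higher mean in mutants, where 54.8% of all genes did. The share varied with the level of the genes, here divided into 4 classes of 5545 by mean expression. In the second class from the bottom, where Fos, Fosb, Egr1, Egr2 and Ier2 lay, 71.8% of genes had a higher mean in mutants, with a median of 0.06. In the third class, where Junb, Atf3, Dusp1 and Nr4a1 lay, the share was 48.8%. In the top class, where Jun lay, it was 33.6%, with a median of -0.03. The number of members with a higher mean was 6 without control replicate 2, which was the lowest control array for 5 of the 10, 7 without mutant replicate 1, and 8 with control replicate 1 and mutant replicate 2 both left out. Without mutant replicate 1 the differences of Ier2 (-0.046) and Dusp1 (-0.012) turned below 0, and the median of the 10 was 0.087. Leaving out control replicate 2 gave a median of 0.02, and leaving out mutant replicate 2 also gave 0.02.

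Arrays of the same group also differed from each other. The median within-group SD was 0.09 over the 10 genes and 0.08 over all genes, and the median range over 6 arrays was 0.27 and 0.23. Ranked by within-group SD among all genes, the members ran from the 32.4th percentile (Atf3) to the 92nd (Nr4a1). Mutant replicate 2 was the highest mutant array for 8 of the 10 genes (Fos, Fosb, Jun, Junb, Egr1, Egr2, Dusp1 and Nr4a1), where it was the highest for 32.1% of all genes. For Atf3 and Ier2 it was the lowest. Control replicate 1 was the highest control for 6 (Fos, Fosb, Junb, Egr1, Egr2 and Ier2), where it was so for 35.8% of all genes, and the lowest for Jun, Atf3 and Dusp1. The mean of the 10 genes was 7.91, 7.84 and 7.89 in controls and 7.91, 7.99 and 7.89 in mutants. Only mutant replicate 2 was above the highest control.

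**Figure D3:**
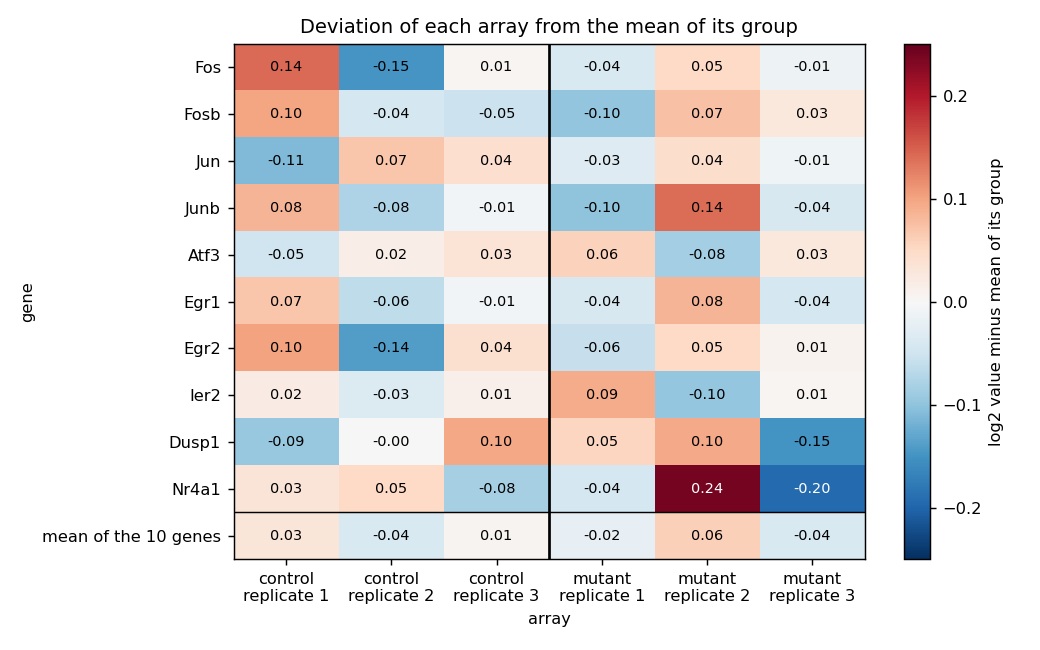
Log2 value of each immediate early gene on each array minus the mean of its own group, with the mean of the 10 genes in the last row (red above, blue below the group mean). Nr4a1 in mutant replicate 2 (0.24) and in mutant replicate 3 (-0.20) shows the largest deviations.

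The level of dim genes as a whole also differed between arrays. It was lowest in control replicate 2, which had none of the 3 raised sets of tissue markers given above, and highest in mutant replicate 2. The median gene of the second expression class, centred over the 6 arrays, stood at -0.06 in control replicate 2 and at 0.04 in mutant replicate 2, with 0.0048 in control replicate 1, and the median gene of the top class at 0.03 and -0.04. Olfactory receptor genes had their lowest median in control replicate 2 (-0.03) and their highest in mutant replicate 2 (0.02). Over the mean pattern of the 10 genes, the 5 annotated genes closest to it were Syngr4 (root mean square difference 0.0077), Spink12 (0.01), Ppp3ca (0.01), Lexm (0.01) and Cd22 (0.01). The part of these shifts in the member values was not tested.

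The wider family showed no call either. Of 9 measured AP-1, Egr and Nr4a relatives, 0 passed at limma's adjusted p under 0.05 and 1 was at an unadjusted p under 0.05, with a median of 0.07. This was Batf3, an AP-1 factor of the BATF type (0.21, SE 0.08, limma adjusted p = 0.357). Next were Egr4 (0.12, SE 0.05) and Egr3 (0.15, SE 0.07), relatives of Egr1, and Jdp2, a Jun partner (0.12, SE 0.07). In Batf3 and Egr4, as in Egr1, the groups did not overlap, and mutant replicate 2 was the highest array. That is 2 of 9 apart and higher, beside 10.6% of all genes, and 1 of 9 at an unadjusted p under 0.05 and higher, beside 7.34%. Of the 9 relatives, 5 lay in the second expression class, where means were mostly higher in mutants.

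Of 30 other early response genes, 0 passed over all genes, 6 were higher and 1 lower at an unadjusted p under 0.05 (7.34% and 5.15% of all genes), and the median was 0.04. The lowest p was that of Btg2, an antiproliferative gene, at 8.85, 8.77 and 8.82 in controls and 8.58, 8.71 and 8.51 in mutants (-0.21, SE 0.06, limma adjusted p = 0.294). Btg2 and Jun thus both had every mutant array below every control, as did Plk3 (-0.08, SE 0.05, limma adjusted p = 0.501). Of the 30 genes, 2 were apart and lower and 5 apart and higher, beside 8.83% and 10.6% of all genes. Cebpb, a leucine zipper factor (0.21, SE 0.07), Socs3, an inhibitor of cytokine signalling (0.17, SE 0.05), and Gadd45b, a stress gene (0.24, SE 0.08), had higher means in mutants, with limma adjusted p from 0.309 to 0.314.

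The feedback genes held the smallest p of the lists. Of 16, 0 passed at an adjusted p under 0.05, and 4 were higher and 1 lower at an unadjusted p under 0.05 (7.34% and 5.15% of all genes), with a median of 0.05. Spry2, an inhibitor of receptor tyrosine kinase signalling, stood at 8.89, 8.93 and 8.91 in controls and at 9.21, 9.23 and 9.19 in mutants (0.30, SE 0.04, limma adjusted p = 0.0911). The groups of Spry2 were further apart than the spread within either. Nab2, a corepressor that binds Egr proteins and is itself known as an Egr target, stood at 9.48, 9.61 and 9.43 in controls and at 9.70, 9.71 and 9.70 in mutants (0.19, SE 0.06, limma adjusted p = 0.293). As for Egr1, every mutant array was above every control for Nab2, while its relative Nab1 overlapped between groups (0.06, SE 0.06, limma adjusted p = 0.698). Of the 16 genes, 4 were apart and higher and 2 apart and lower, beside 10.6% and 8.83% of all genes. A link between Nab2 and Egr1 was not tested. The MAP kinase phosphatase genes Dusp10 (0.32, SE 0.11) and Dusp16 (-0.18, SE 0.06) had opposite signs, and neither passed (limma adjusted p = 0.320 and 0.315).

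Among 18 measured kinases and factors that act on these promoters, 0 passed, 14 had lower means in mutants, where 45.2% of all genes did, and the median was -0.05. Of the 18, 13 lay in the top expression class, where 66.4% of all genes had lower means, and 11 of these 13 were lower. At an unadjusted p under 0.05 were Mapk8, which encodes the Jun kinase JNK1 (-0.15, SE 0.05, limma adjusted p = 0.319), and the Raf family kinase gene Braf (-0.11, SE 0.05, limma adjusted p = 0.398). Both had every mutant array below every control, as did Creb1 (-0.06, SE 0.05, limma adjusted p = 0.580) and, named after its values were seen, the p38 kinase gene Mapk14 (-0.06, SE 0.05, limma adjusted p = 0.642). These 4 of 18 stand beside 8.83% of all genes apart and lower, and the 2 at an unadjusted p under 0.05 beside 5.15%. Crebbp, a coactivator of CREB, overlapped between groups (-0.07, SE 0.05).

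Heat shock and chaperone genes, which are known to respond when tissue is stressed, showed no common shift between the groups. Of 12 measured, 5 had higher and 7 lower means in mutants, with a median of -0.02, 0 passed, and 1 was at an unadjusted p under 0.05, the co-chaperone gene Bag3 (0.16, SE 0.05, limma adjusted p = 0.320), beside 7.34% of all genes at that p and higher. Hsph1 (-0.30, SE 0.14) and Hspb1 (0.21, SE 0.13) overlapped between groups. The heme oxygenase gene Hmox1 stood at 9.58 in mutant replicate 2 and at 7.97 to 8.23 on the other arrays, so its difference (0.50, SE 0.37, limma adjusted p = 0.597) came with 1 array and was 0.0075 without it. By within-group SD, Hspa1a, Hspa1b, Hspb1, Hsph1 and Hmox1 lay between the 95.1th and 99.5th percentiles of all genes. The rest of the list lay between 2.1 and 67.1. Among controls, Hspa1a, Hspa1b and Hsph1 were highest in replicate 2 and lowest in replicate 3, while Hspb1 and Hmox1 were lowest in replicate 2.

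**Figure D4:**
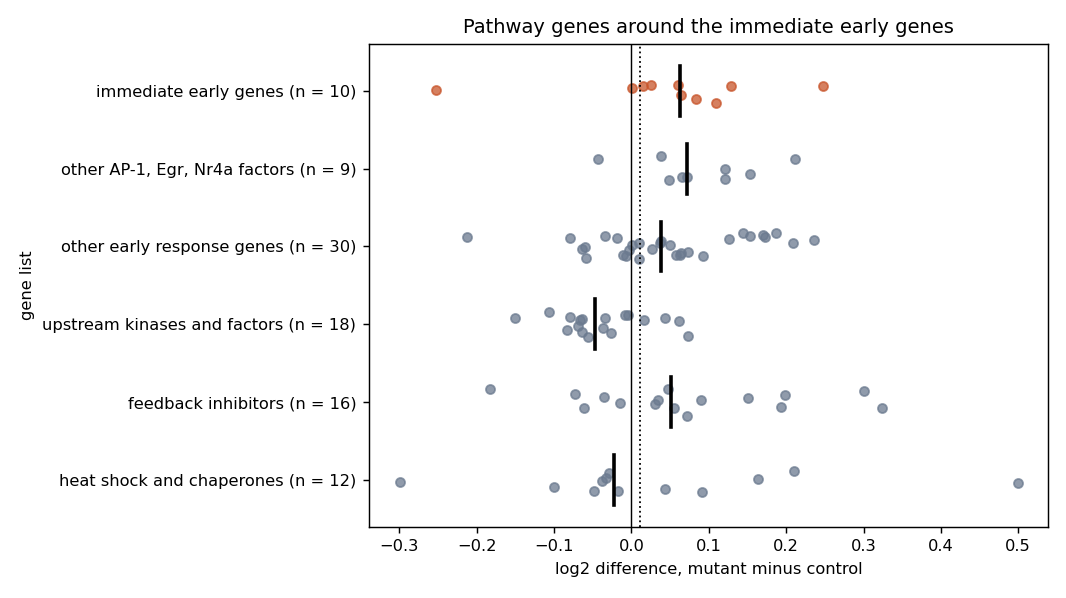
Differences between groups on the log2 scale for the 10 immediate early genes (orange) and the genes of 5 related lists (grey), 1 point per gene, with the median of each list (black bar), 0 (solid line) and the median of all genes (dotted line). The medians run from -0.05 for the upstream kinases and factors to 0.07 for the AP-1, Egr and Nr4a relatives, and the points of every list lie on both sides of 0.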

How the data were processed

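Per the labels' protocols, RNA of 6 lung bud samples was primed with poly(T), amplified and biotinylated. The deposited values are log2 expression; the submitters' processing notes name oligo and RMA, and the sources used here give no version, filter or genome build. RMA normalizes the arrays to each other, so only changes relative to other genes are seen. Among 41345 probe sets, 23521 had 1 symbol, 1814 several and 16010 none here; the 22180 genes used the probe set with the highest mean. Groups came from sample titles. limma 3.58.1 in R 4.3.3 (lmFit, eBayes, two-sided, Benjamini-Hochberg over all genes) gave differences, SE and 95% intervals, and was tested on simulated data. The members and lists were chosen with earlier results of these data known. Genes named from a list are the up to 4 with the smallest p, and the 5 closest in pattern to Nr4a1 (the widest range) or to the members' mean, leaving out predicted transcripts. Mapk14, Plk3, Nab1, Hspa1a and Hspa1b were named after their values were seen. The labels call the replicates biological but do not name the embryos, so p-values measure the spread between these arrays. Alternatives were a further normalization, filters on dim genes, probe set averages, other variance models, array weights, the replicate block and arrays left out. Figures used matplotlib 3.10.9 in Python 3.11.15.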

Additional observations from a re-analysis of the deposited data

How the results depend on the processing

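The count of members called stayed at 0 in every alternative run at an adjusted p under 0.05 or 0.10, and 2 members were at an unadjusted p under 0.05, or 3 without mutant replicate 2 (Atf3 with Jun and Egr1) and 1 above the 50th percentile of expression, where Egr1 was not tested. The Jun difference ran from -0.31 to -0.22 and that of Egr1 from 0.21 to 0.28 over the fits that left out 1 array each. Over all genes limma called 14, and 8 after a further quantile normalization, 25 and 50 above the 30th and 50th percentiles of expression (fewer genes tested), 26 with a variance trend, 26 with robust variances, 57 at an adjusted p under 0.10, 0 with the replicate number as a block, 0 without any 1 array (1797 to 3084 at an unadjusted p under 0.05) and 0 with control replicate 1 and mutant replicate 2 both left out (2716 at an unadjusted p under 0.05). The cause was not tested. The filter at the 50th percentile removed 5 members. The members' median, 0.06, ran from 0.018 to 0.10 when 1 array was left out, and members with a higher mean from 6 to 9. Leaving out 1 array turned the sign of 5 small differences: Fos ran from -0.049 to 0.10, Junb from -0.0097 to 0.11, Egr2 from -0.0057 to 0.12, Ier2 from -0.046 to 0.049 and Dusp1 from -0.0325 to 0.090. Dusp1 was also -0.023 with array weights and -0.080 with control replicate 1 and mutant replicate 2 both left out. Deviations of control and mutant arrays with the same replicate number correlated at -0.04, -0.06 and 0.07 across genes. The best correlation of each control with another number was 0.04, 0.14 and 0.02. With so few arrays these values cannot tell whether the numbers pair the arrays. With the block, limma's adjusted p was 0.337 for Jun and 0.376 for Egr1. The number of arrays limits precision: the 95% intervals of the 8 members whose groups overlapped ran from 0.89-fold (Dusp1) to 1.30-fold (Nr4a1).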
